A study of Rattus norvegicus with 24 samples.

Results

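Molybdenum cofactor synthesis and the molybdoenzymes were followed through 10 genes, chosen by name because tungsten can take the place of molybdenum in these enzymes. They were 10 of the 32883 reference genes listed for every rat, and each name matched 1 entry. RNA-Seq had been run on frontal cortex of 24 adult male Sprague-Dawley rats, 24 h after the exposed groups breathed an aerosol of tungsten particles. The Control group was labelled 0 mg/m3, the Low group 5 mg/m3 and the High group 80 mg/m3, with 8 rats in each, and the labels name no allele or second agent. The values are coverage, the mean read depth per base of a gene, divided by the summed coverage of the reference genes of the rat and multiplied by 1000000, called scaled coverage here. Because coverage is per base, levels of different genes are set side by side in it. Their order and ratios can differ in FPKM, the other value listed, as given below.

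The molybdenum cofactor is a pterin that holds the metal in the molybdenum enzymes of animals. MOCS1 makes its precursor from GTP, MOCS2 adds sulfur to that precursor, MOCS3 recharges MOCS2 with sulfur, and gephyrin (Gphn) inserts molybdate. MOCOS then adds a further sulfur atom that xanthine dehydrogenase and aldehyde oxidase need, while sulfite oxidase works without it. In brain, failure of cofactor synthesis or of sulfite oxidase lets toxic sulfite build up in early life, and gephyrin has a separate role as the scaffold of glycine and GABA-A receptors at inhibitory synapses. RNA was measured, not metal content or enzyme activity.

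In the RNA, all 10 genes were found at a level above 0 in all rats, and their means spanned 53.2 for Mocs2 to 0.758 for Marc1. None of the 8 genes that reached a mean of 1 passed the test in any comparison of groups. Mocs1, the gene of the first step, had the lowest unadjusted p: the mean of the 8 Control rats was 6.37 ± 1.51 (SD, n = 8), that of the Low rats 5.03 ± 0.918 (SD, n = 8) and that of the High rats 6.18 ± 0.824 (SD, n = 8). Among the molybdoenzymes, the paired reductases Marc1 and Marc2 stood farthest apart, with Marc2 39.5 times as high as Marc1.

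Over the series, the summed coverage of the reference genes lay, in units of 1000000, between 1.67 and 2.82 (Control), 1.64 and 3.07 (Low) and 1.77 and 2.67 (High). The tables hold no read counts, so the counting error of these values is unknown. Control and High tables also list loci assembled from the reads, 46334 to 159573 a rat in Control and 50235 to 64010 in High, whereas Low tables list 0, so a difference of the Low group and a difference in how its tables were made cannot be told apart. In 7 libraries with consecutive numbers, 56 to 62, the 8 short minus-strand genes of the mitochondrial genome, of tRNA length, summed to a scaled coverage of 5449 to 8102, against 84.9 to 155 in the other 17. Those libraries are 1 Control rat and 6 Low rats, and they were grouped from this pattern, not from a label. The tissue check found the 4 excitatory neuron markers Slc17a7, Tbr1, Neurod6 and Neurod2, which summed to 751 to 1081 among Control rats, 612 to 1047 among Low rats and 364 to 1019 among High rats. Slc17a7 made up most of the sum (mean 702, beside 50.1 for Tbr1, 59.7 for Neurod6 and 42.4 for Neurod2). From Control to Low its mean went from 768 to 646, whereas Neurod6 went from 52.4 to 75.1 (adjusted p = 0.434 and 0.164 in limma). Tbr1 and Neurod2 also had a higher mean in Low than in Control.

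Other cell types were represented too. The 5 astrocyte markers summed to 710 to 1291, 815 to 1258 and 712 to 1210 in the same order, and the 5 oligodendrocyte markers to 3598 to 5184, 3815 to 7444 and 2262 to 5798. The 6 striatal markers ranged more widely, from 331 to 732, 243 to 555 and 175 to 1160. Endothelial markers (6 of 8 found) lay between 60.2 and 119, blood markers (4 of 5 found) between 460 and 1750, and 5 hepatocyte markers, 1 of which (Ttr) also marks choroid plexus, between 1.81 and 76.6. Microglia (5 markers) summed to 134 to 242, meninges and fibroblasts (5 of 6 found) to 29.9 to 125, interneurons (5 markers) to 479 to 942 and choroid plexus (5 markers) to 4.53 to 72.2. The part of these cell types in the values below was not tested, and in bulk tissue fewer cells of a type cannot be told apart from less RNA in each.

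Marc1 and Marc2 lie side by side on the minus strand of chromosome 13 with 3129 bases between them, so their upstream sequences are set out for comparison. Each is the 250 bases before the gene's start in RefSeq's annotation of the GRCr8 build, printed 5′ to 3′ on the gene's strand with every CG dinucleotide in capitals. Marc1 is at chr13:98894054-98894303 and Marc2 at chr13:98928755-98929004 in that build, where they are named Mtarc1 and Mtarc2.
Marc1: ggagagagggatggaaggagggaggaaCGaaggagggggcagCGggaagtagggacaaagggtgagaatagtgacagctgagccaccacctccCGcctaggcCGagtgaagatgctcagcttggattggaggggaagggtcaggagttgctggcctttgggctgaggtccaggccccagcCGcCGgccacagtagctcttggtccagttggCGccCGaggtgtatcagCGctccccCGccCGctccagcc
Marc2: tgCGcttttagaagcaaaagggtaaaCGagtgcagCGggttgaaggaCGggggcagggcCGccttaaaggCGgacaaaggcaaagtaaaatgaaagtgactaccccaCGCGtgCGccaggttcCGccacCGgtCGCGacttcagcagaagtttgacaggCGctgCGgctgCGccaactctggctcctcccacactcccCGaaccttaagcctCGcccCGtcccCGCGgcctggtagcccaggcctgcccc
The Marc1 window held 11 CG and the Marc2 window 21, and 36.1% and 16.3% of 27457 rat promoters of the same length held at least as many. CG reads the same on both strands, and the letters alone say nothing about a factor or about methylation.

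All 10 genes had such a window, and 9 of them lie on the same strand in that annotation as in the tables. Xdh is on the plus strand in the annotation and on the minus strand in the tables, and its window was read as annotated. Gphn held 32 CG, a count that 4.31% of promoters reached, and Mocs2 held 20, Mocs3 19, Mocs1 12, Mocos 11, Aox1 9, Xdh 7 and Suox 2, with a median of 6 over all promoters. The 3 genes with the highest levels (Mocs2, Gphn and Marc2) were also the 3 with the most CG, but Suox, with the fewest, had the fourth highest level.

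By level, the order over the 24 rats was Mocs2 with a mean of 53.2, Gphn with 38.7, Marc2 with 29.95, Suox with 15.9, Mocs3 with 9.83, Aox1 with 6.86, Mocs1 with 5.86, Xdh with 3.71, Mocos with 0.765 and Marc1 with 0.758. Mocs2 exceeded Gphn, Gphn exceeded Marc2, Marc2 exceeded Suox and Suox exceeded Mocs3 in 24 of 24 rats, and Xdh exceeded Mocos in 24 of 24. The ranges of Mocs2 and Gphn, of Marc2 and Suox, and of Xdh and Mocos did not overlap. The middle of the order was looser: Mocs3 was above Aox1 in 21 of 24 rats, Aox1 above Mocs1 in 16 and Mocs1 above Xdh in 23. At the bottom, Mocos was above Marc1 in 13 of 24 rats, so in scaled coverage these neighbours did not differ beyond their spread. Of all reference genes, 91.3% had a lower mean than Mocs2 and 50.7% a lower mean than Marc1. This order is that of scaled coverage and can change with FPKM, the other value listed, scaled to the same sum. In Low replicate 64, Aox1 and Mocs3 were at 11.7 and 8.28 by FPKM, against 6.64 and 8.91. By FPKM, Aox1 was above Mocs3 in Low replicates 59 to 64 and below it in 57 and 58. Among Control and High rats it was above Mocs3 by FPKM only in replicates 56 and 66. In Low replicate 57, Mocos and Marc1 were at 1.59 and 1.42 by FPKM, against 0.737 and 1.53.

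**Figure D1:**
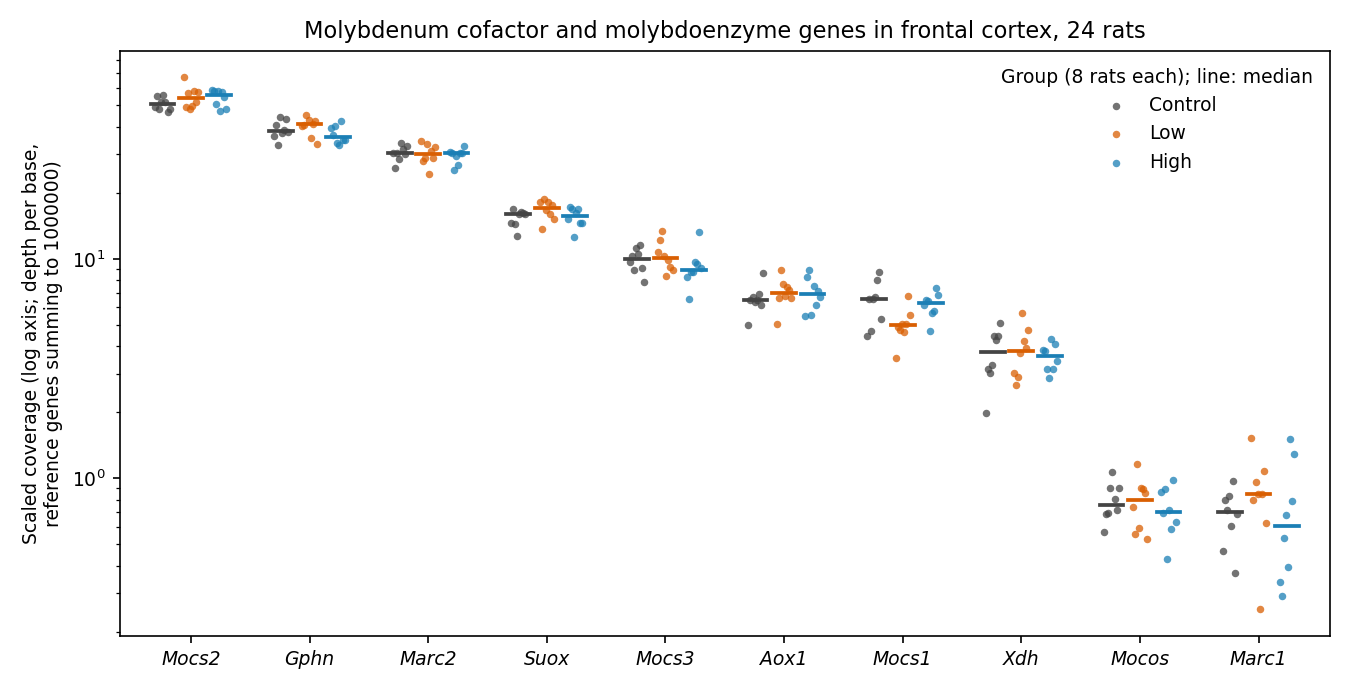
Scaled coverage of the 10 genes on a log axis, 1 point per rat, with a line at the median of each group of 8; genes run from the highest mean (Mocs2, 53.2) to the lowest (Marc1, 0.758). The Control, Low and High points overlap for every gene, and the points spread most for Marc1.

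Spread between rats was smallest for genes of high level. The coefficient of variation over the 24 rats was 8.82% for Marc2, 9.50% for Mocs2, 9.82% for Gphn and 10.3% for Suox. It was 15.9% for Aox1, 16.7% for Mocs3, 21.0% for Mocs1, 22.9% for Xdh and 23.6% for Mocos, and reached 46.0% for Marc1.

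Cofactor synthesis starts with Mocs1 (ENSRNOG00000011784), placed by the tables on the minus strand of chromosome 9 from 13493709 to 13513960. All positions from the tables are given as listed there: the submitters' notes name the mRatBN7.2 build, but the last gene of chromosome 1 ends at 282724300, and the build of the tables was not settled. Mocs1 ranged from 4.46 to 8.71 among Control rats (median 6.56), from 3.52 to 6.79 among Low rats (median 4.97) and from 4.69 to 7.39 among High rats (median 6.30). The Low rats lay toward the bottom of the Control range, and the groups overlapped. The log2 fold change of Low against Control was -0.28 (SE 0.12, 95% interval -0.52 to -0.03), with an unadjusted p of 0.0274 and a Benjamini-Hochberg adjusted p of 0.198 in limma. Against High it was -0.26 (SE 0.12, 95% interval -0.50 to -0.01), with an unadjusted p of 0.0386 and an adjusted p of 0.150 in limma.

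The Mocs1 difference of the Low group changed with the library block (56 to 62) as a covariate and with the scaling. The block holds 6 Low rats, a single Control rat and no High rat. A difference of the block and one of the Low group therefore cannot be told apart. This limit holds for every fit below that uses the block as a covariate. Inside libraries 56 to 62 the 6 Low rats had a mean of 4.65 (3.52 to 5.06) and the single Control rat had 5.31. Outside them the 2 Low rats had 5.54 and 6.79, within the range of the 7 Control rats (4.46 to 8.71, mean 6.52). With the block as a covariate in limma, the log2 fold change was -0.09 against Control (adjusted p = 0.866) and -0.03 against High (adjusted p = 0.935). With median-of-ratios scaling in limma it was -0.32 against Control (adjusted p = 0.0503) and -0.34 against High (adjusted p = 0.0277), so the call against High, where 10.6% of all genes were called under that scaling, is not made under the main one. High against Control, Mocs1 differed by -0.02 on the log2 scale (95% interval -0.26 to 0.22).

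**Figure D2:**
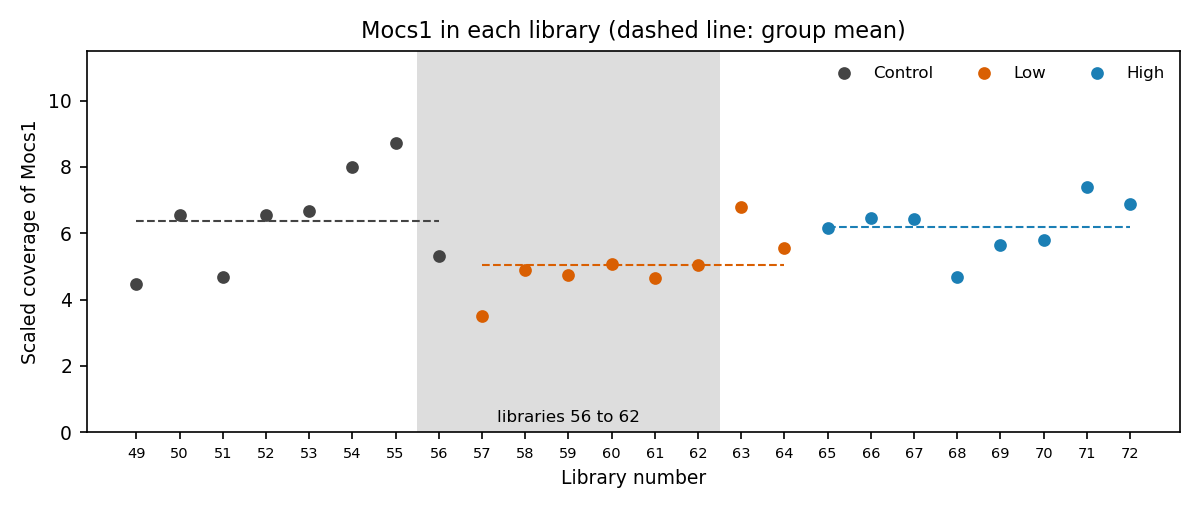
Scaled coverage of Mocs1 by library number, coloured by group, with group means as dashed lines and libraries 56 to 62 shaded. The 6 Low libraries in the shaded block lie between 3.52 and 5.06, and the 2 Low libraries after it are at 5.54 and 6.79.

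Mocs2 (ENSRNOG00000056325; chromosome 2, plus strand, 46980976 to 46992883) codes for the synthase that puts the dithiolene sulfur into the cofactor. It ranged from 46.7 to 56.0 among Control rats (median 50.5), from 48.2 to 67.0 among Low rats (median 54.2) and from 47.3 to 58.7 among High rats (median 55.9). The highest value belonged to a Low rat, and the lower ends of the groups nearly coincided. Its log2 fold change was 0.10 in Low against Control (95% interval -0.04 to 0.23) and 0.08 in High against Control (95% interval -0.05 to 0.22), and neither passed.

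Mocs3 (ENSRNOG00000025067; chromosome 3, plus strand, 164986421 to 164988369) codes for the activating enzyme of the synthase and also takes part in tRNA thiolation. It lies 240 bases from the nearest listed gene, Dpm1. Its values were 7.85 to 11.6 among Control rats (median 10.02), 8.37 to 13.4 among Low rats (median 10.1) and 6.56 to 13.2 among High rats (median 8.91). The High value of 13.2 came from replicate 71, and the other 7 High rats lay between 6.56 and 9.70. The log2 fold change of Low against High was 0.16 (95% interval -0.06 to 0.38).

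Gphn (ENSRNOG00000028366; chromosome 6, plus strand, 101532518 to 101859164) spans 326.6 kb, the longest of the 10. It ranged from 32.9 to 44.3 among Control rats (median 38.2), from 33.2 to 45.0 among Low rats (median 40.9) and from 33.0 to 42.2 among High rats (median 35.8). The bottoms of the groups were alike, and the High median was the lowest. Low against High gave a log2 fold change of 0.12 (SE 0.07, 95% interval -0.02 to 0.26), with an adjusted p of 0.259 in limma.

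Mocos (ENSRNOG00000015113; chromosome 18, plus strand, 16590197 to 16636084), the sulfurase of the cofactor, was below the minimum mean of 1 and was not in the fit. A 5S_rRNA entry lies inside it on the opposite strand. Mocos ranged from 0.571 to 1.07 among Control rats (median 0.758), from 0.530 to 1.16 among Low rats (median 0.795) and from 0.428 to 0.979 among High rats (median 0.703). The groups overlapped almost entirely. Mocs3, Gphn and Mocs2 were 12.9, 50.6 and 69.6 times as high as Mocos by the ratio of means.

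The molybdoenzymes differed more in level than the synthesis genes other than Mocos. Suox (ENSRNOG00000005987; chromosome 7, minus strand, 3098245 to 3102142) codes for sulfite oxidase, which turns sulfite into sulfate in mitochondria. It ranged from 12.6 to 16.8 among Control rats (median 15.98), from 13.6 to 18.7 among Low rats (median 17.1) and from 12.6 to 17.2 among High rats (median 15.7). Some Low rats exceeded all others, and the lowest values of the 3 groups were close. For Suox the log2 fold change was 0.12 in Low against Control (SE 0.07, 95% interval -0.04 to 0.27, adjusted p = 0.421 in limma) and of 0.01 in High against Control (95% interval -0.14 to 0.16).

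Xdh (ENSRNOG00000007081; chromosome 6, minus strand, 25149235 to 25211494) codes for xanthine dehydrogenase, which makes uric acid at the end of purine breakdown. It ranged from 1.99 to 5.09 among Control rats (median 3.78), from 2.65 to 5.67 among Low rats (median 3.81) and from 2.86 to 4.30 among High rats (median 3.62). The medians were close, and High spread least. Its intervals were the widest of the 8 tested genes, with log2 fold changes of 0.05 in Low against Control (95% interval -0.24 to 0.33) and -0.02 in High against Control (95% interval -0.30 to 0.26).

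Aox1 (ENSRNOG00000015354; chromosome 9, plus strand, 64929721 to 65007870) codes for an aldehyde oxidase and was 1.85 times as high as Xdh by the ratio of means. It ranged from 4.98 to 8.65 among Control rats (median 6.47), from 5.04 to 8.87 among Low rats (median 6.99) and from 5.48 to 8.90 among High rats (median 6.92). The 3 ranges nearly coincided. The related gene Aox3 lies 5991 bases away and had a mean of 0.566, and Aox4 and Aox2 had means of 0.0797 and 0.0182. Reads that these related genes share could be assigned to either, so the level of Aox1 carries that uncertainty.

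Marc1 (ENSRNOG00000004101; chromosome 13, 102698546 to 102721218) and Marc2 (ENSRNOG00000037850; chromosome 13, 102724348 to 102756174) code for the mitochondrial amidoxime reducing components, reductases of N-hydroxylated compounds. Marc2 ranged from 25.8 to 33.6 among Control rats (median 30.3), from 24.4 to 34.5 among Low rats (median 29.9) and from 25.2 to 32.7 among High rats (median 30.3). Marc1 ranged from 0.370 to 0.976 among Control rats (median 0.701), from 0.254 to 1.53 among Low rats (median 0.848) and from 0.291 to 1.51 among High rats (median 0.606). The Marc2 ranges lay close together, whereas both exposed groups of Marc1 reached below and above the Control range. The ratio of Marc2 to Marc1 ran from 19.99 to 105 over single rats, and reads shared by these paralogues could add to the value of either. A short same-strand entry, AABR07022014.1, lies within Marc2.

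The 2 genes below the minimum mean were tested singly. In 6 exact permutation tests of the difference of group means, two-sided over 12870 divisions of the rats, the unadjusted p ran from 0.229 (Marc1, Low against Control, means 0.867 and 0.680) to 0.879 (Mocos, Low against Control, means 0.778 and 0.792). Every adjusted p over these 6 was 0.879.

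For the 8 genes that reached a mean of 1, limma made 0 calls in Low against Control, where 6.11% of the 15644 genes tested were called. In Low against High it made 0 calls as well, beside 11.7% of all genes tested. High against Control gave 0 calls among the 8 and 0 among all genes, a share of 0%. At an unadjusted p under 0.05, 1 of the 8 (Mocs1) was below it in Low against Control and 1 (Mocs1) in Low against High, and 0 in High against Control, while 2885, 4545 and 330 of all genes were. Exact Wilcoxon rank-sum tests also gave 0 adjusted calls among the 8 in each comparison, with 0, 1 (Mocs1) and 0 at an unadjusted p under 0.05 for Low against Control, Low against High and High against Control. Over all 15644 genes these tests gave 372, 1147 and 0 adjusted calls in the same order, and 2726, 5213 and 887 at that unadjusted p.

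Apart from Mocs1, the adjusted p in limma ran from 0.421 (Suox) to 0.929 (Marc2) in Low against Control and from 0.259 (Gphn) to 0.932 (Aox1) in Low against High. It was 0.999 for all 8 in High against Control. The median log2 fold change of the 8 was 0.05 in Low against Control, -0.02 in High against Control and 0.05 in Low against High, beside 0.06, -0.03 and 0.09 over all genes tested. These values are on the log2(scaled coverage + 1) scale, which understates differences of low genes. The Low and High comparisons share the Control rats, so their values are not independent.

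**Figure D3:**
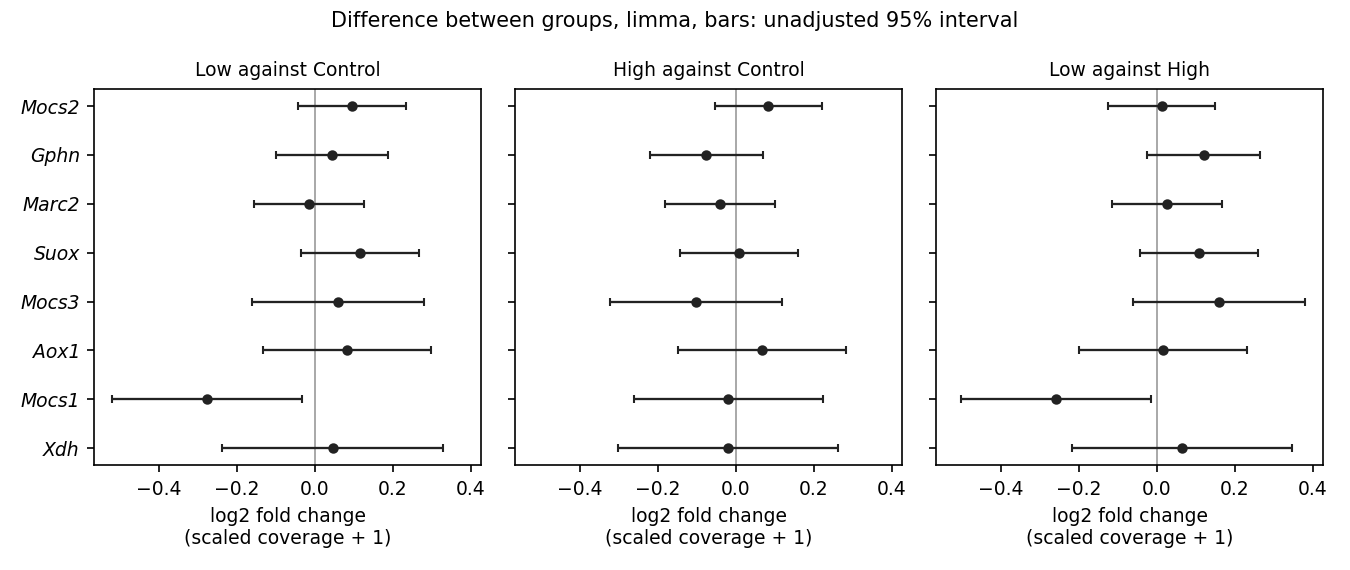
Log2 fold change of the 8 genes that reached a mean of 1, in each comparison (points, limma) with unadjusted 95% intervals (bars). Mocs1 has intervals below 0 in both comparisons with the Low group, -0.52 to -0.03 and -0.50 to -0.01, and the other intervals include 0.

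The FPKM column gave another picture for some of these genes, so the ratio of FPKM to coverage was taken for each and divided by the ratio of the median gene in the same library. Mocs1, Suox, Xdh and Marc1 were at 1 in all 24 rats. Gphn lay between 1.01 and 1.07 in Control, between 1.13 and 1.14 in Low and between 1.01 and 1.06 in High. Aox1 lay between 1.13 and 1.66 in Control, between 1.42 and 1.90 in Low and between 1.13 and 1.22 in High. Low thus stood clear of both other groups for Gphn, and of High but not of Control for Aox1. The Control value of 1.66 was that of library 56, whose table lists the most assembled loci, 159573, and the next Control rat was at 1.30.

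Mocos and Mocs3 varied in this ratio as well. Mocos lay between 1 and 1.78 in Control, between 1.25 and 2.32 in Low and between 1 and 1.57 in High. Mocs3 was at 1 in all 8 Low rats, and reached 1.22 in Control and 1.30 in High. These ratios were looked at after the data had been seen, and no test was run on them. In all, 2 of the 10 genes (Mocs2 and Gphn) had every Low rat above every Control and High rat, beside 13.3% of 14816 genes, and for Mocs2 the gap was small, with Control and High between 1.01 and 1.02 and every Low rat at 1.02.

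**Figure D4:**
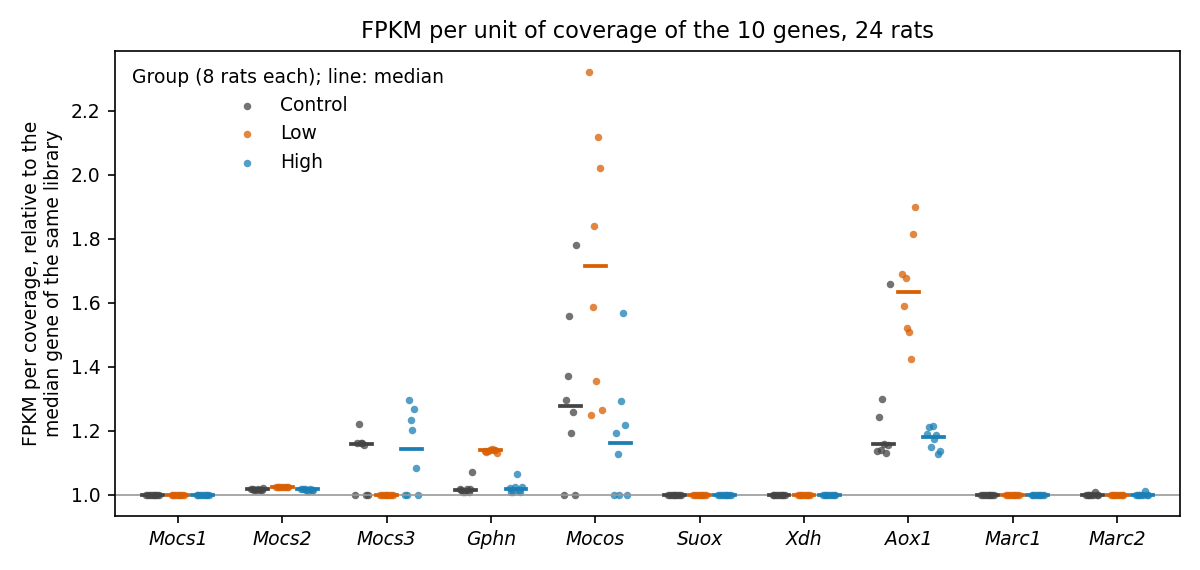
FPKM per unit of coverage relative to the median gene of the same library, 1 point per rat, for the 10 genes, with a line at each group's median. The Low medians of Gphn, Aox1 and Mocos lie above those of Control and High, Mocs3 is at 1 in all Low rats, and Mocs1, Suox, Xdh and Marc1 are at 1 in every rat.

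The choice of column therefore bears on the calls for Gphn and Aox1. With FPKM divided by its own sum over the reference genes, the log2 fold change of Aox1 was 0.42 in Low against Control (adjusted p = 0.0329 in limma) and of 0.42 in Low against High (adjusted p = 0.0280 in limma). Gphn had 0.24 in Low against High (adjusted p = 0.0161 in limma). On that scale 11.8% of the 15699 genes tested were called in Low against Control and 16.8% in Low against High. The scaled coverage of the same genes differed by 0.08, 0.02 and 0.12 and gave no call.

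Assembled loci on the same strand overlapped these genes in 154 of the 160 pairs of a gene and a Control or High rat. In 85 of the pairs, a locus had a coverage within 10% of that of the reference entry. The share differed by gene, with 15 of 16 rats for Mocs3 and for Xdh, 14 for Mocs2, 12 for Suox, 9 for Marc2, 8 for Mocs1, 7 for Aox1, 4 for Mocos, 1 for Gphn and 0 for Marc1. Low tables have no such loci. The values above use the reference entries alone.

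Genes around the pathway were taken from lists. Among 15 tested genes that work with gephyrin at inhibitory synapses, limma made 0 calls in each of the 3 comparisons, with 0, 0 and 4 at an unadjusted p under 0.05 in Low against Control, High against Control and Low against High. Of all genes tested, 18.4%, 2.11% and 29.1% were below that unadjusted p, and 6.11%, 0% and 11.7% were called. The median log2 fold changes of the 15 listed genes were 0.09, -0.07 and 0.15 in the same order. Dynll2 and Dynll1, dynein light chains that bind gephyrin, had the highest means of the list, 608 and 579.

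In sulfite and cysteine catabolism, 1 of 12 tested genes was higher in Low than in Control, and 0 were lower, with 3 at an unadjusted p under 0.05. Over all 15644 genes tested, 6.11% were called in this comparison in either direction, 192 higher and 764 lower, and 18.4% were below an unadjusted p of 0.05. The gene called was Cdo1, the dioxygenase that starts cysteine breakdown toward sulfite. Its level was 36.6 to 43.0 among Control rats, 38.5 to 58.3 among Low rats and 39.2 to 43.1 among High rats, and Low against Control gave a log2 fold change of 0.21 (SE 0.06, adjusted p = 0.0464 in limma). The same list had 0 calls in High against Control (1 unadjusted) and 0 in Low against High (4 unadjusted). Of all genes tested, 0% and 11.7% were called in these 2 comparisons, and 2.11% and 29.1% were below that unadjusted p. With libraries 56 to 62 as a covariate, Cdo1 was no longer called (log2 fold change 0.14, adjusted p = 0.610 in limma). Cycs and Got1, cytochrome c and an aminotransferase, had the highest means of the list, 333 and 312. Cdo1 acts before Suox in this route, and the log2 fold change of Suox in the same comparison was 0.12 without a call.

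Around Xdh, 1 of 12 tested genes of purine breakdown was higher in Low than in High, where 11.7% of all genes tested were called. The gene of the list was Adk, adenosine kinase, at 39.0 to 47.0 in High and 44.7 to 58.0 in Low (log2 fold change 0.21, SE 0.06, adjusted p = 0.0216 in limma). Adk was not called with libraries 56 to 62 as a covariate (log2 fold change 0.13, adjusted p = 0.470 in limma). The list had 0 calls in Low against Control (1 unadjusted) and 0 in High against Control (0 unadjusted). Of all genes tested, 6.11% and 0% were called in these comparisons, and 18.4% and 2.11% were at an unadjusted p under 0.05. Pnp and Gda, which make the substrates of xanthine dehydrogenase, had means of 102 and 95.2. Uox, which breaks uric acid down in rats, had a mean of 0.271.

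The 9 tested entries for sulfur supply and cofactor precursors, in which Nfs1 is listed under 2 identifiers, gave 0 calls in the 3 comparisons, and 0 at an unadjusted p under 0.05. Over all genes tested, 6.11%, 0% and 11.7% were called in Low against Control, High against Control and Low against High. In the same order, 18.4%, 2.11% and 29.1% were below that unadjusted p. Iscu, a scaffold of iron-sulfur clusters, and Tst, a sulfurtransferase, led the sulfur supply list with means of 142 and 59.9. Gch1, which draws on the same GTP for another pterin, had a mean of 0.709 and was not tested. The 6 tested aldehyde dehydrogenases also gave 0 calls in limma in the 3 comparisons (0 unadjusted), beside the same shares over all genes. Aldh2 (mean 53.4) and Aldh9a1 (47.5) were at the top. The aldehyde oxidase paralogues Aox2, Aox3 and Aox4 were below the minimum mean.

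Over the 24 rats, each centred on the mean of its group, the gene whose log2 level followed Mocs1 most closely was Ascc2 (Pearson r = 0.83), out of 10510 genes with a mean of at least 5. The closest gene was Obsl1 for Aox1 (r = 0.87), Trim26 for Gphn (r = 0.83), Lipe for Xdh (r = 0.81), Sub1 for Mocs2 (r = 0.81), Hspb6 for Marc2 (r = 0.80), Mindy3 for Mocs3 (r = 0.76) and Lgals8 for Suox (r = 0.71). Obsl1, Ascc2 and the others were each the best of many candidates, and all genes of a rat share its library and scaling, so these values describe likeness only. Among pairs of the 8 tested genes themselves, r ran from -0.37 (Mocs2 and Aox1) to 0.48 (Mocs1 and Xdh).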

How the data were processed

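One stranded polyA RNA-Seq library of frontal cortex per rat was used, grouped by the sample labels. The labels' extraction text speaks of cell lines, whereas the study's methods describe tissue from separate animals. Per the submitters' processing notes, the authors ran FastQC, Trimmomatic, TopHat2 and StringTie on mRatBN7.2, and no source used here gives versions or StringTie options. The coverage signal the authors deposited is a raw mean depth per base. The FPKM the authors deposited is corrected by StringTie for length and library. TPM was left out.

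Coverage was summed per identifier (34 have repeated entries) and scaled to a sum of 1000000 over the 32883 reference genes of a library. The 15644 genes that reached a mean of 1 entered limma 3.58.1 (trend, robust; R 4.3.3), as log2(value + 1). All 3 groups were fitted together and tested two-sided, and the threshold was a Benjamini-Hochberg adjusted p of 0.05 over all genes tested. Python 3.11.15 with numpy 2.4.6, pandas 2.3.3, scipy 1.17.1 and matplotlib 3.10.9 served for the rest. The limma fit and the rank test were checked on simulated data.

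The 10 genes, the gene lists and the tests were chosen with earlier results of these data known. Every one of the 10 is named. From the lists of gephyrin partners and of excitatory neuron markers, 1 gene each is not reported here, and the counts and sums leave it out. A listed neighbour is named where it passes the threshold (up to 5 per list and comparison), and otherwise the 2 with the highest means. Uox, Gch1, Nfs1 and Aox2 fall outside that rule and were named after their values were seen. Of the 3 genes recorded as most like each of the 10, the closest is given. Upstream sequences come from RefSeq's GRCr8 annotation, matched by symbol for 10 of 10. A genome and proteins were not used here. Alternatives were a pseudocount of 0.1, the filter dropped or raised to 5, scaling dropped or done by median of ratios, the FPKM column, pairs of groups fitted alone, exact Wilcoxon tests, libraries 56 to 62 as a covariate, overlapping assembled loci added, and each rat left out. FPKM divided by its sum, FPKM per coverage, and Mocs1 inside and outside libraries 56 to 62 were added after seeing the data.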

Additional observations from a re-analysis of the deposited data

Results flagged for a closer look

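Mocs3 in High replicate 71 was far from the rest of its group, at a scaled coverage of 13.2 against 6.56 to 9.70 in the other 7 High rats. The gap to the nearest rat was 0.530 of the range of the group. This was 1 of 30 sets of 8 values looked at (10 genes in 3 groups), in which chance gives about 1.5 such cases. Without that rat, Mocs3 had a log2 fold change of -0.17 in High against Control and of 0.23 in Low against High (unadjusted p = 0.0264, adjusted p = 0.125 in limma), and neither passed.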

How the results depend on the processing

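With each rat left out in turn, 0 of the 8 genes passed in any comparison (lowest adjusted p 0.0877), and 33 of 576 log2 fold changes changed sign. The count over all genes then ran from 676 to 1224 in Low against Control, from 1266 to 2676 in Low against High and stayed at 0 in High against Control. Under the other settings 34 of 261 values for the 8 genes passed. Most of these came from FPKM as deposited and from adding overlapping assembled loci, 2 settings that called most of all genes tested. Calls over all genes in Low against Control and Low against High were 361 and 354 with libraries 56 to 62 as a covariate, 372 and 1147 by exact Wilcoxon tests and 556 and 1192 with a minimum mean of 5, and 535 in Low against Control with only the groups compared. None of these settings called any of the 8, nor did a pseudocount of 0.1, no filter or no scaling. The direction of the calls over all genes depended on the setting. In Low against High, 999 of 1828 were lower in Low, beside 1286 of 1656 with median-of-ratios scaling, 1262 of 1370 with no scaling, 323 of 354 with the covariate, 562 of 1192 with a minimum mean of 5, 944 of 1994 with only the groups compared and 1080 of 2631 with FPKM over its sum. In Low against Control, 764 of 956 were lower, beside 931 of 1085, 705 of 761, 347 of 361, 442 of 556, 464 of 535 and 892 of 1847 in the same order. Median-of-ratios scaling called 1 (Mocs1) in Low against High. FPKM divided by its sum brought 9 of the followed genes into the fit. That setting called 1 (Aox1) in Low against Control and 2 (Aox1 and Gphn) in Low against High. Of the 15699 genes tested, 1847 and 2631 were called in these comparisons.

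FPKM as deposited called 7 of the 8 in both comparisons with Low (not Mocs1), beside 12393 and 12410 of the 13816 genes tested. The median over all genes rose to 0.53 and 0.52 on the log2 scale, and Marc2 turned from -0.01 to 0.46 in Low against Control. Adding overlapping assembled loci brought 9 of the followed genes into the fit and called 8 of the 9 in both. These were the 8 of the main fit, beside 15781 and 15490 of the 18185 genes tested. Low tables have 0 such loci, so this setting raises only Control and High. In Low against Control it turned Suox to -0.82, Xdh to -0.73, Aox1 to -0.72, Mocs3 to -1.07, Gphn to -1.03 and Mocs2 to -0.83. In Low against High it turned Suox to -0.79, Xdh to -0.76, Aox1 to -0.83, Mocs3 to -0.76, Gphn to -0.83, Marc2 to -0.76 and Mocs2 to -0.91. No setting called any of the 8 in High against Control.

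No paired analysis was possible because the groups share no replicate numbers. The tables give no read counts per library, so the counting error of low genes such as Mocos and Marc1 is unknown.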
